A study of Macaca mulatta with 2 samples.

Results

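In cultured Sertoli cells of Macaca mulatta, 10 genes that make, break down or sense prostaglandins were followed. They were taken by name from the arrays, as every gene probe annotated PTGS1, PTGS2, PTGES, PTGDS, PTGIS, PTGER2, PTGER4, PTGFR, HPGD or TBXAS1. This gave 10 genes with 19 probes, of 21495 named genes with 34973 probes. Each probe was spotted once, 1 gene had 3 probes, 7 had 2 and 2 had 1. All 10 names also occur in both macaque gene tables, RefSeq and Ensembl.

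Sertoli cells line the seminiferous tubule, where they carry and feed the germ cells. The infant culture came from testes of males under 3 months old. The pubertal culture came from males of 18 to 22 months, juveniles that had received gonadotropin-releasing hormone by catheter for 4 to 5 weeks, at 0.15 µg/min during 2 min of every 3 h. Both cultures were then kept for 12 h with follicle-stimulating hormone (5 ng/ml) and testosterone (100 nM), so no untreated cells are part of the comparison. The comparison asks how these hormone-treated cells differ with the maturity of the testis. There was 1 array per culture and no replicate, so no difference carries a test, and animal, culture, age and hormone pulses cannot be told apart. The sources used here do not give the number of animals behind a culture. In cultures, fewer cells of a type and less RNA per cell cannot be told apart either.

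Prostanoids are short-lived lipid signals made from arachidonic acid, which phospholipases release from membranes. The cyclooxygenases PTGS1 and PTGS2 turn it into an unstable endoperoxide, and terminal synthases convert that into prostaglandin D2 (PTGDS), E2 (PTGES), prostacyclin (PTGIS) or thromboxane (TBXAS1). Each product acts on its own receptors, such as PTGER2 and PTGER4 for prostaglandin E2 and PTGFR for prostaglandin F2α. HPGD starts the breakdown of prostaglandins such as E2. PTGDS is a known secretory product of Sertoli cells, and in the mouse embryonic testis prostaglandin D2 promotes SOX9, the factor that specifies Sertoli cells.

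The probes were 60-base oligonucleotides of a human design, so their sequence decides what monkey RNA they can capture. The sequences that carry the results are shown in part, in lower case and 5′ to 3′ as filed. Both of the overlapping PTGDS probes ended in the same stretch of the transcript. They shared 56 bases, 54 of them identical, and differed at C12A and G25A, counted from the 5′ end of the first, whose letter comes first. Capitals mark these bases in the 30 bases that hold both.
PTGDS, probe GT_44k_23_P146554: caCccctgcccactcGggcttcatcctgca
PTGDS, probe GT_HS_44k_0076: caAccctgcccactcAggcttcatcctgca
For PTGS2 and PTGIS, the probe above background is shown with a motif in capitals, ATTTA, the core of AU-rich elements that shorten the life of many messenger RNAs, and AATAAA, the canonical polyadenylation signal.
PTGS2, probe GT_44k_24_P250922: tgagatATTTAaggttgaatgtttgtcctt
PTGIS, probe GT_44k_24_P48723: ccttgctattttAATAAAgattctattttc
ATTTA stood in 5 of the 19 probes as filed, against 8.26% of 50171 gene probes on the array, and in 2 on the other strand (8.34%). AATAAA stood in 4 as filed, against 4.40%, and in 0 on the other strand (3.74%). These counts describe where probes were placed and say nothing on regulation.

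By the scanner software's flag, 54.9% (pubertal) and 54.8% (infant) of gene spots exceeded background clearly, and 0 were saturated. Here, above background and detected mean well above background by this flag. Dimmer spots can fail it and still pass a weaker one. A level is a log2 signal after subtraction of the array's 75th percentile, and a difference is the pubertal level less the infant level. Over the 14243 genes measured on both arrays the median difference was -0.06, and 13.6% of the genes differed by 2-fold or more, 7.31% upward and 6.32% downward in the pubertal culture. All 15 of 15 fixed Sertoli cell markers were well above background on both arrays, against 66.3% of all named genes. So were 10 of 10 peritubular myoid, 9 of 10 fibroblast and 8 of 10 Leydig cell markers. Detection of the Sertoli cell markers thus does not show how pure the cultures were.

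Most of the prostaglandin genes were near the detection limit. Of the 10 genes, 3 were well above background on both arrays, PTGDS, PTGIS and HPGD, against 66.3% of all named genes. PTGS1, PTGS2, PTGER4 and TBXAS1 were so in the infant culture alone, as were 3.14% of all genes. None of the 10 was so in the pubertal culture alone, against 4.21% of all genes. PTGES, PTGER2 and PTGFR were well above background on neither array, as were 26.3% of all genes. Of the 3 genes measured on both arrays 0 differed by 2-fold, against 13.6% of all genes. All 3 differences were positive, against 45.7% of all genes. So few genes cannot set either count apart from its share. A signal near the limit on a human probe does not show that the monkey gene is silent, since sequence mismatches lower the signal.

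**Figure D1:**
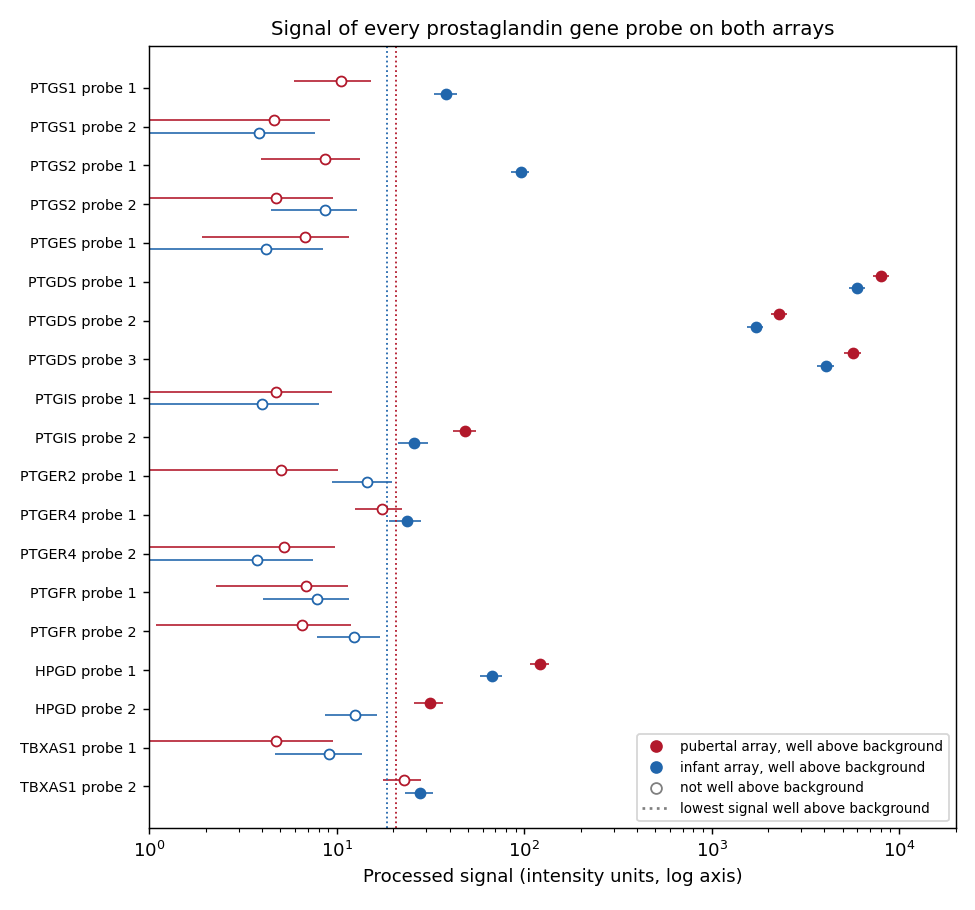
Processed signal of each of the 19 probes on the pubertal (red) and infant (blue) array, on a log axis, with the scanner software's error as bars (cut at the left edge where they reach below 1). Filled points are well above background and open points are not; dotted lines mark the lowest signal well above background on each array. The 3 PTGDS probes lie between 1719 and 8023 units on both arrays, and PTGS2 probe 1 is filled on the infant array alone.

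PTGS2, the inducible cyclooxygenase, was well above background in the infant culture alone and had the highest lower bound of the 4 genes in that position. Its probe GT_44k_24_P250922 gave a processed signal of 95.6 ± 10.3 units on the infant array and 8.62 ± 4.69 on the pubertal array, where ± is the error of the scanner software for the spot. The infant spot had a mean pixel value of 155.4 against 64.2 on the pubertal array, with local backgrounds of 33.0 and 34.0. The infant signal was well above background and the pubertal one was not. On the reported scale this put the pubertal level at least 4.89-fold lower, with the spot error left out. That lower bound was set against the lowest signal that was well above background there, or against the probe's own pubertal signal where that is higher. On the log2 scale the bound was -2.29, and shrank to -1.04 with normexp correction and -1.39 with spike-in scaling. The 8 spots nearest to the probe differed by a median of 0.15 and by no more than 0.89 in size, so the difference was not shared by its surroundings. The other probe, GT_44k_24_P77008, gave 8.67 ± 4.19 on the infant and 4.76 ± 4.78 on the pubertal array. It cleared the background limit on neither array and its pubertal value was the software's floor, so it gives no direction.

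PTGS1, the constitutive cyclooxygenase, was likewise well above background on the infant array alone. One probe gave 38.4 ± 5.35 units there and 10.6 ± 4.66 on the pubertal array, a lower bound of 1.96-fold lower. It passed a weaker background flag on both arrays. Its nearest 8 spots had a median of -0.61, so its surroundings leaned the same way by a smaller amount. That bound was -0.97 on the log2 scale, and shrank to -0.38 with normexp correction and -0.07 with spike-in scaling. The other probe sat at the software's floor for dim spots on both arrays, at 3.83 and 4.60 units. Of the 674 genes detected on the infant array alone, 18.8% had a lower bound of 2-fold or more, and of the 4 prostaglandin genes in this position PTGS2 did.

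TBXAS1, which makes thromboxane, and PTGER4, a prostaglandin E2 receptor that raises cAMP, crossed the background limit on the infant array by little. TBXAS1 gave 27.9 ± 4.77 units on the infant and 22.8 ± 5.16 on the pubertal array, and PTGER4 gave 23.6 ± 4.51 and 17.4 ± 4.81. Their lower bounds were 1.30- and 1.21-fold, and the signals of the arrays overlapped within the scanner error. The bound of TBXAS1 was taken against its own pubertal signal. The second probe of either gene was well above background on neither array, at 4.73 (pubertal) and 9.12 (infant) units for TBXAS1 and 5.24 and 3.75 for PTGER4, with 1 value of each pair at the software's floor. No difference between the cultures was measurable for either gene, and with spike-in scaling neither had a lower bound.

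PTGDS, the lipocalin-type prostaglandin D2 synthase, was bright on all 3 of its probes and slightly higher on the pubertal array. The probe GT_44k_23_P146554 gave 8023 units there and 5976 on the infant array. Its overlapping partner GT_HS_44k_0076, which carries the substitutions shown above, gave 2298 and 1719. The difference was 0.34 on the first and 0.33 on the second, despite the bases at which they differ. The third probe, GT_HS_44k_0077, did not overlap them and gave 5680 and 4070, a difference of 0.39. The mean was 0.35 on the log2 scale (1.28-fold higher), with an SD of 0.03 between the 3 probes and a scanner error of 0.12. The probes gave one direction, but the size was within the ordinary range of the comparison: 76.3% of all genes had a lower difference. The median SD between repeated spots of 1 probe was 0.09 on either array.

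HPGD, the dehydrogenase that inactivates prostaglandins, was higher on the pubertal array with both probes. The probe GT_44k_23_P213050 gave 121.9 ± 14.2 units in the pubertal and 67.3 ± 9.13 in the infant culture, a difference of 0.77 (1.70-fold) with a scanner error of 0.26. The other probe, GT_44k_24_P71904, was above background on the pubertal array alone, at 31.4 ± 5.56 against 12.5 ± 3.94, a lower bound of 1.60-fold higher. PTGIS, the prostacyclin synthase, rested on 1 dim probe with 48.6 ± 6.67 units in the pubertal and 26.0 ± 4.80 in the infant culture, a difference of 0.81 (1.76-fold) with a scanner error of 0.33. Its other probe sat at the floor on both arrays. Both genes had levels under -1 on either array, and of the 4116 genes in that range 8.36% were 2-fold or more higher and 4.83% lower, with HPGD and PTGIS in neither class. Of all genes, 89.1% had a lower difference than HPGD and 90.0% a lower one than PTGIS. Among 18 replicated probes of comparable brightness, with signals of 20 to 150 units on both arrays, the difference varied between spots with a median SD of 0.26 and up to 0.45. Both differences exceeded that spread of single spots, which does not cover the culture. With normexp background correction they shrank to 0.30 and 0.24.

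**Figure D2:**
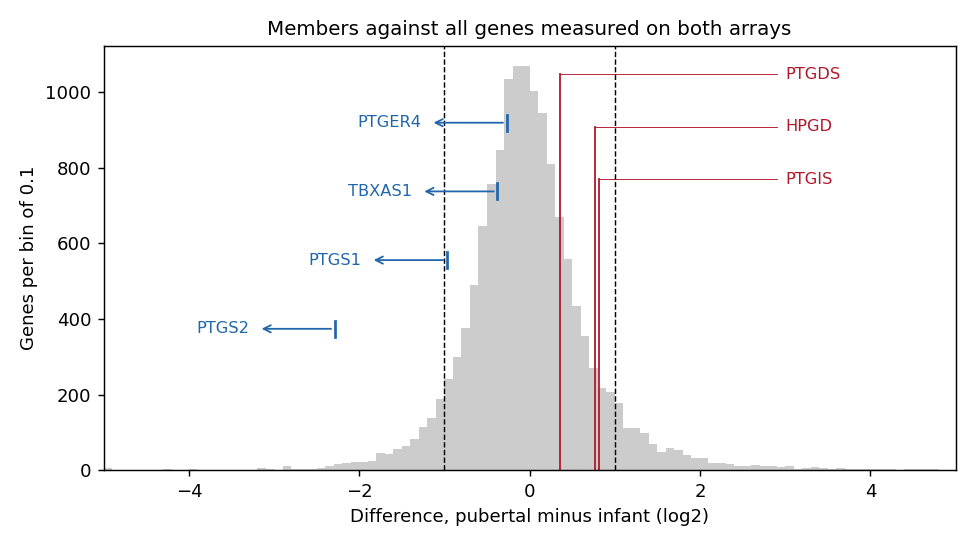
Histogram of the difference, pubertal minus infant on the log2 scale, for 14243 genes measured on both arrays (grey; values beyond 5 are put in the end bins), with dashed lines at 2-fold. Red lines mark the 3 prostaglandin genes measured on both arrays, and blue bars with arrows mark the lower bounds of the 4 measured on the infant array alone; PTGS2 starts at -2.29 and the others lie within 2-fold.

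PTGES, the inducible prostaglandin E synthase, gave 6.77 ± 4.87 units in the pubertal and 4.21 ± 4.22 in the infant culture, and no difference can be given. PTGER2, the other cAMP-raising prostaglandin E2 receptor, gave 5.04 ± 5.06 and 14.5 ± 5.13. The probes of PTGFR, which signals through calcium, gave 6.84 and 6.50 units in the pubertal and 7.84 and 12.4 in the infant culture. In all, 13 of the 19 probes were not well above background on the pubertal array, 5 of them at the software's floor, and 4 probes were at the floor on the infant array.

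The remaining synthases and receptors gave more measurable signals, some lower and some higher on the pubertal array. Of 10 other genes listed for prostanoid synthesis, 9 were measured on both arrays, with 2 past 2-fold upward and 2 past it downward. PTGES2, a membrane-associated prostaglandin E synthase, had 187.2 units in the pubertal and 401.9 in the infant culture, a difference of -1.19 (2.29-fold lower) with a scanner error of 0.21. AKR1B1, an aldo-keto reductase that makes prostaglandin F2α in human tissues, differed by -1.17 (2.25-fold lower). CBR1, which can convert prostaglandin E2 into F2α, was higher by 1.56 (2.95-fold) on 1 dim probe with 99.0 and 31.5 units, and by 0.72 with normexp correction. GSTM3, a glutathione transferase, was higher by 1.64 (3.11-fold), with 1.47 and 1.80 on its detected probes. The cytosolic synthase PTGES3 (0.18), AKR1C3 (-0.18), C1orf93 (0.26), GSTM2 (-0.26) and MIF (-0.26), a cytokine kept in the list, were within 2-fold, and the negative values turned positive with spike-in scaling, MIF also with quantile normalization. The blood cell type prostaglandin D2 synthase, here under its older name PGDS, gave 4.73 and 4.06 units and was above background on neither array.

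Among 7 other receptor genes, 3 were measured on both arrays. The prostacyclin receptor PTGIR was lower on the pubertal array with both probes, at 54.8 and 141.9 units against 143.0 and 310.5 on the infant array. Its differences of -1.47 and -1.22 averaged -1.35 (2.54-fold lower) with a scanner error of 0.16. PTGFRN, a membrane protein that binds the prostaglandin F2α receptor and damps it, differed by -1.18 (2.26-fold lower). TBXA2R, the thromboxane receptor, differed by 0.23. With spike-in scaling PTGIR (-0.44), PTGFRN (-0.28), PTGES2 (-0.29) and AKR1B1 (-0.27) kept their sign but were within 2-fold. PTGES2 (-0.99) and PTGIR (-0.93) were also within it with normexp correction, and AKR1B1 with loess (-0.99) and quantile (-0.997) normalization. The prostaglandin E2 receptors PTGER1 and PTGER3 were above background on the infant array alone. PTGER1 had a lower bound of 1.30-fold lower, and PTGER3 one of 2.26-fold lower on 1 of its 6 probes, while the other 5 were above background on neither array. The prostaglandin D2 receptors PTGDR and GPR44 were above background on neither.

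In arachidonic acid supply, prostanoid transport and breakdown and the other branches, 1 or 2 genes per list passed 2-fold, all downward. Of all genes, 6.32% passed it downward and 7.31% upward. Of 23 genes that release or supply arachidonic acid, 15 were measured on both arrays, 0 were 2-fold higher and 1 lower, the phospholipase PLA2G12A at -1.37. The phospholipase PLA2G4A, which supplies arachidonic acid to the cyclooxygenases, was above background on the infant array alone, with a lower bound of 1.65-fold lower. In prostanoid transport and breakdown, 2 of 10 measured genes were 2-fold lower, the carbonyl reductase CBR3 (-1.14) and CYP4F8 (-1.30), and 0 higher. The prostaglandin transporter SLCO2A1 differed by 0.30. In the lipoxygenase and epoxygenase branches, 2 of 16 were lower, ALOX5AP, which presents arachidonic acid to 5-lipoxygenase, at -1.07 and the epoxide hydrolase EPHX1 at -1.25, and 0 higher. With spike-in scaling all 5 were within 2-fold: PLA2G12A (-0.47), CBR3 (-0.24), CYP4F8 (-0.39), ALOX5AP (-0.17) and EPHX1 (-0.34). With normexp correction CBR3 (-0.55), CYP4F8 (-0.69), ALOX5AP (-0.85) and EPHX1 (-0.72) were also within it, and CBR3 was at -0.50 with no filter on dim probes or the median of all probes.

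The genes known to induce PTGS2 or to act beside it had a median of -0.81 over 20 measured genes, against -0.06 over all genes. Against 7.31% of all genes upward and 6.32% downward, 0 of the 20 were past 2-fold upward and 9 downward. Cytokine signals were among them: IL6 (-2.48), IL1A (-1.67) and the interleukin-1 receptor IL1R1 (-1.63). So were the growth factor AREG (-1.81), its receptor EGFR (-1.33), the inhibitor of NF-κB NFKBIA (-1.81), and the transcription factors CEBPD (-1.35), CEBPB (-1.28) and HIF1A (-1.16). Of the 20 differences 16 were negative, while ZFP36 (0.65), ELAVL1 (0.19), TGFB1 (0.19) and EGR1 (0.06) were positive. The cytokine genes IL1B, TNF and IL1RN of the same list were above background on neither array, so no difference can be given for them. Genes that respond to cAMP-raising prostanoid receptors, among other stimuli that include the added follicle-stimulating hormone, had a median of -0.96 over 17. Against the same shares of all genes, 0 of them were past 2-fold upward and 8 downward. These were STAR (-4.24), PTX3, a protein of the matrix around the oocyte (-3.18, or 9.04-fold lower), DUSP1 (-2.86), NR4A2 (-2.83), RGS2 (-1.80), NR4A3 (-1.50), the cytokine LIF (-1.29, with -2.03 and -0.55 on its probes) and the vascular growth factor VEGFA (-1.08 over 4 probes). On the spike-in scale, where every difference was 0.90 higher, 1 of the inducers and partners and 4 of the cAMP-responsive genes were past 2-fold downward, and the median of the inducers turned positive. With other settings than spike-in scaling, EGFR (-0.62) and VEGFA (-0.84) were within 2-fold with normexp correction, HIF1A with quantile (-0.94) and loess (-0.96) normalization, and EGFR (-0.98) and NR4A3 (-0.66) with no filter on dim probes. With the median of all probes EGFR was at -0.92 and NR4A3 at -0.66. STAR is also 1 of the Leydig cell markers. These lists were drawn up with earlier results of these data known, so their direction is no independent evidence.

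**Figure D3:**
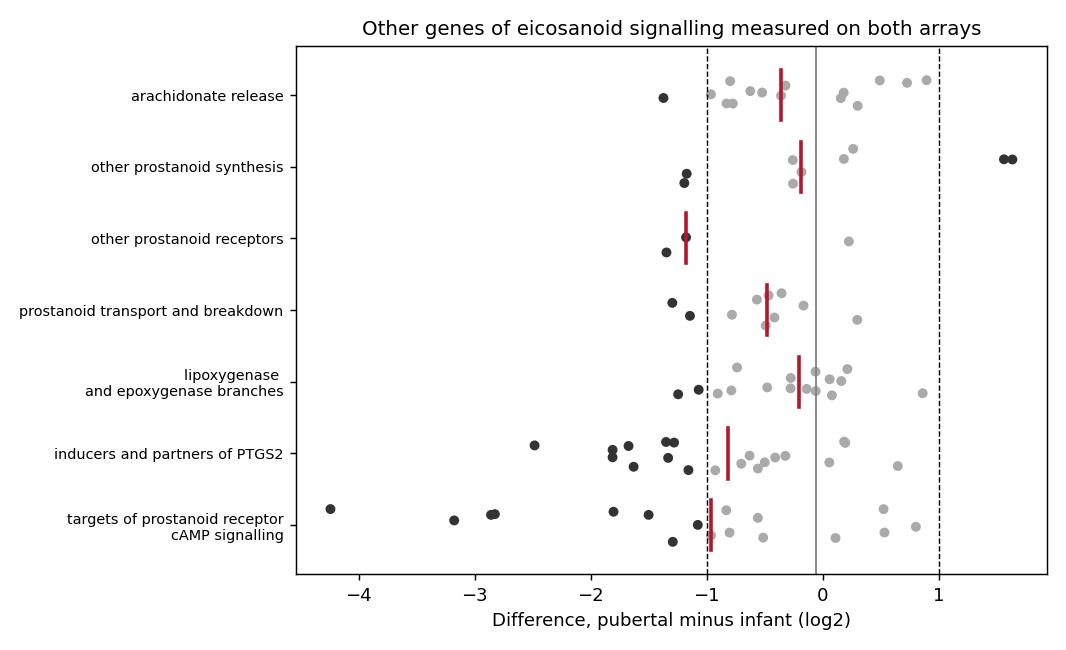
Difference, pubertal minus infant on the log2 scale, for each gene of the 7 lists that was measured on both arrays, 1 point a gene and dark where at least 2-fold. Red bars are list medians, the grey line is the median of all genes at -0.06 and dashed lines mark 2-fold; 26 different genes lie beyond the left line and 2 beyond the right.

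Markers of other cell types that make prostanoids also differed between the cultures. Of 15 macrophage markers, 6 were above background on both arrays and 4 in the pubertal culture alone, with none in the infant culture alone. Their summed level was 5.56 in the pubertal and 1.22 in the infant culture, in units of the 75th percentile signal. Of the 6, CD68 was lower in the pubertal culture (-0.94) and the others were higher, CD163 the most (3.08). CYBB, LYZ, MARCO, C1QA and C1QC were above background on neither. The macrophage sum was thus higher in the pubertal culture. PTGS1, PTGS2 and TBXAS1 were well above background in the infant culture alone, TBXAS1 without a measurable difference between the cultures. All 10 peritubular myoid markers were detected on both arrays, 6 of them past 2-fold upward in the pubertal culture, with sums of 243.1 and 151.9. Endothelial markers had sums of 1.70 and 0.79, with CDH5, KDR, TIE1 and EMCN above background on neither. Both of these cell types are known sources of prostacyclin. Their sums were higher on the same array as PTGIS, which rested on 1 dim probe. The sums of macrophage, mast cell, germ cell and Sertoli cell markers were higher on that array too. Those of fibroblast, Leydig cell, and platelet and erythroid markers were lower. Within the 2 lists, LMOD1 (-0.85, myoid) and ERG (-0.10, endothelial) were lower on the pubertal array. Of 7 mast cell markers on the array, 1 was detected on both arrays and 2 on the pubertal array alone (sums 0.79 and 0.30), with CPA3, MS4A2, CMA1 and PGDS above background on neither. Germ cell markers had sums of 14.9 and 4.26, with PIWIL1, ACRV1, PRM2 and TNP1 on neither array. The infant sum rested mostly on UTF1, at a log2 level of 1.89 there and 2.13 in the pubertal culture (0.24). Over the 6 germ cell markers measured on both arrays the median difference was 3.72. Another 3 were detected on the pubertal array alone and 1, PRM1, on the infant array alone. The Sertoli cell sums were 345.8 and 257.3, fibroblast markers 42.4 and 48.2, and platelet and erythroid markers 19.3 and 24.3. The last pair rested mostly on GP9, at a log2 level of 4.23 in the pubertal and 4.55 in the infant culture. In that list ITGA2B (0.29) was higher in the pubertal culture, while GP9 (-0.32), GP1BA (-0.31), ALAS2 (-0.23) and HBA1 (-1.12) were lower. PF4 was detected in the pubertal and HBB in the infant culture alone. Leydig cell markers had 51.0 and 155.5, with 3 of 8 measured, STAR, CYP17A1 and CYP11A1, past 2-fold downward in the pubertal culture. The other 5 had positive differences of 0.09 to 0.41 and the median of the 8 was 0.13, while STAR stood at a log2 level of 2.41 in the pubertal and 6.65 in the infant culture. The part of these cell types in the prostaglandin gene results was not tested.

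PTGDS, HPGD and PTGIS kept a positive difference under every setting that gave a value, 12 alternatives for PTGDS and HPGD and 11 for PTGIS, but its size depended on the scale. Scaling on the E1A spike-in probes raised every difference by 0.90, which put PTGDS at 1.25, HPGD at 1.67 and PTGIS at 1.72. On that scale 38.8% of all genes were at least 2-fold higher, so these values are to be read relative to the array as a whole. The lower bound of PTGS2 was -1.39 on the spike-in scale and -1.04 with normexp correction, so it stayed beyond 2-fold in both.

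**Figure D4:**
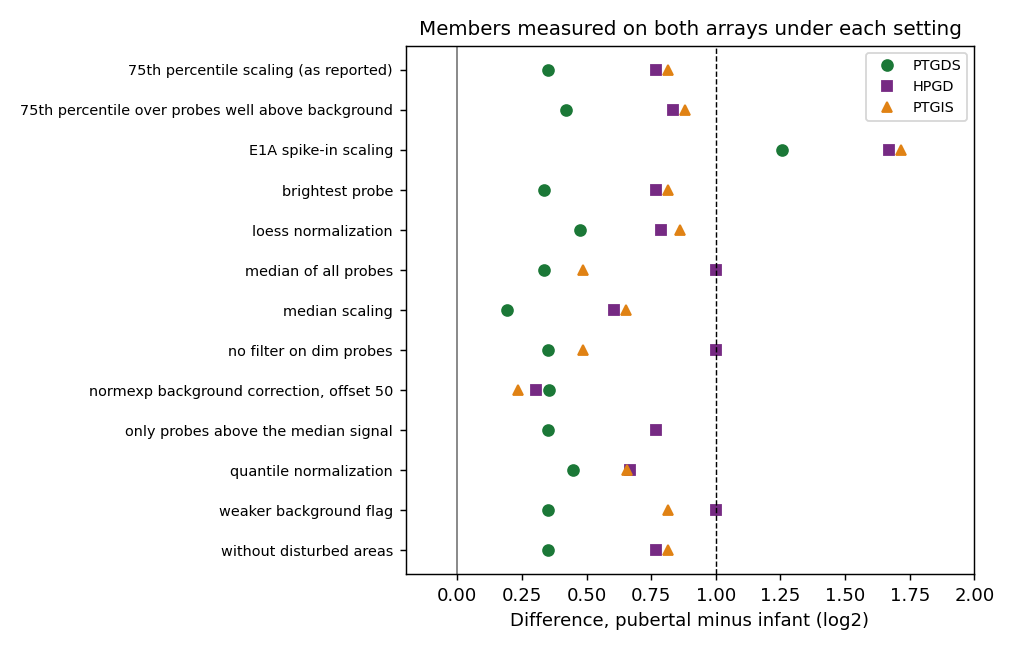
Difference, pubertal minus infant on the log2 scale, of PTGDS, HPGD and PTGIS under the reported setting and 12 alternatives, with a dashed line at 2-fold. Every point lies above 0, and PTGIS has none among probes above the median signal; only spike-in scaling moves all 3 beyond 2-fold, and HPGD reaches the line at 1.00 where its dimmer probe is counted.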

How the data were processed

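One-colour arrays, 1 pubertal and 1 infant, were grouped by sample title. The authors deposited the intensity of every spot, as read by Agilent's Feature Extraction software, version 10.5.1.1 in the submitters' processing notes. The processed intensity, per the file headers, had its background subtracted and its spatial trend removed, and the software put a floor value in place of the lowest signals. The software's error values, flags of 0 or 1 and p-value of each spot against background were also deposited; the p-value was not used. Per the labels' protocols, Trizol was used to isolate RNA and Cy3 to label it. Probe annotation was on hg18, per the file headers, and no coordinates were used.

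Outlier spots (96 and 91 gene spots) were left out. The log2 of the processed intensity minus its 75th percentile (406.0 and 381.5 units) was averaged per probe, and a gene took the mean of probes well above background on both arrays. Lower bounds used the lowest signal well above background, 20.8 pubertal and 18.5 infant units, or the dim probe's own signal where higher. The steps were tested on simulated data. Alternatives were other background correction, scaling, filters on dim probes, probe summaries and thresholds, and leaving out disturbed areas. The number of arrays limits the precision. Tools were Python 3.11.15 and limma 3.58.1.

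The members, lists and alternatives were chosen with earlier results of these data known. Genes were named by rule: all members, all other listed synthases and receptors, and every listed gene past 2-fold. PLA2G4A, SLCO2A1 and the single genes named from marker lists were chosen after their values were seen. The same holds for the inducers and partners of PTGS2 that were named without being past 2-fold.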

Additional observations from a re-analysis of the deposited data

How the results depend on the processing

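PTGDS was 0.19 with median scaling, 0.47 with loess normalization and 1.25 with spike-in scaling. HPGD was 0.30 with normexp correction and 1.67 with spike-in scaling, and PTGIS 0.24 and 1.72. The 3 kept their direction under all settings that gave a value; PTGIS had none among probes above the median signal. In place of 0 members 2-fold higher there were 3 with spike-in scaling, 2 at 1.5-fold, and 1 (HPGD) with the median of all probes, no filter on dim probes or the weaker background flag. In place of 0 lower there were 2 with no filter (PTGS2 at -2.26 and PTGER2 at -1.62) and 2 with the weaker flag (PTGS2 at -3.56 and PTGS1 at -1.95), values that rest on signals not well above background. Of the other listed genes, 2 were higher in the reported setting, 22 with spike-in scaling, 5 with no filter, 4 with the weaker flag, 1 with normexp correction, 1 among probes above the median signal, 7 at 1.5-fold and 0 at 4-fold. The 26 lower became 5 with spike-in scaling, 41 at 1.5-fold and 5 at 4-fold. Among all genes 53.6% of the 2-fold calls were upward, against 37.4% with median scaling and 97.5% with spike-in scaling. Over all named genes, normexp correction gave 551 higher and 568 lower calls, against 1041 and 900. With no filter on dim probes 2080 were higher and 1486 lower, and with the weaker flag 1708 and 1364. Without that filter the summed marker levels, pubertal over infant, moved from 1.34 to 1.07 for Sertoli cells, from 3.50 to 2.67 for germ cells and from 2.60 to 4.78 for mast cells. The cause of these changes was not tested. No paired analysis was possible because each group had 1 array. Signals near background limit most members.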
